A study of Mus musculus with 12 samples.

Results

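The heat shock chaperones were followed across all 12 mouse arrays of a study of the KK-Ay model of type 2 diabetes (T2D). Members were chosen by gene symbol from 10 listed genes, Hspa1a, Hspa1b, Hspa8, Hsp90aa1, Hsp90ab1, Hsph1, Dnajb1, Hspb1, Hspd1 and Hsf1. A transcript cluster, the group of array probes that measures one transcript, was a member when its annotation gave exactly 1 symbol and that symbol was listed. This rule gave 13 of 35556 clusters, for 7 of the 10 genes. Hspa1b was annotated only on a cluster shared with Hspa1a, whose values are given beside the members. Hsp90ab1 and Hsf1 had no cluster with 1 symbol in the annotation used and were not analysed here.

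Total RNA was hybridized to Affymetrix GeneChip mouse arrays, and each value is a log2 signal after robust multichip analysis (RMA), so a difference of 1 is a 2-fold change. The titles gave 6 groups of 2 arrays each, named 1, 6Y, 6K, 16Y, 42Y and 42WKK. KK mice and KK.Cg-Ay/J (KK-Ay) mice were used in the study, fed lab chow without restriction, and no drug or other treatment was given in the sources. The Ay allele of agouti is a deletion that joins agouti to the promoter of Raly, so that agouti is transcribed in many tissues. The series design text counted the 6 Y-titled arrays (6Y, 16Y and 42Y) as T2D and the other 6 (1, 6K and 42WKK) as control, whereas the sample records call 6K T2D and 42Y control. The study's methods describe mice of 42 weeks, which is the number in the 42Y and 42WKK titles. What the numbers 1, 6 and 16 count, the strain and age of the mice in group 1, the sex of the mice and whether the 2 arrays of a group came from separate mice were not given. The p-values therefore measure the spread between arrays, which may be technical, and nothing separates the title number from a batch.

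The labels were checked against the data. The agouti signal was 6.78 to 7.06 in the 6 Y-titled arrays and 5.20 to 5.51 in the other 6. Raly was 6.59 to 6.81 in the Y-titled arrays and 7.21 to 7.73 in the others, with 6K on the side of the others for both genes. Tissue was blood in the sample records and liver in the methods. The median of 7 hepatocyte markers, such as albumin (Alb), was 12.94 to 13.29 in every array, against 3.65 to 4.07 for 4 T cell markers and 2.78 to 3.50 for 3 B cell markers. Arrays of one group correlated at r = 0.983 (42Y) to 0.991 (42WKK) over all clusters, and array medians lay between 4.74 and 4.88.

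Heat shock proteins are chaperones that hold, fold or disaggregate other proteins. HSP70 proteins bind unfolded stretches with the help of J-domain proteins (HSP40) and nucleotide exchange factors (HSP110), and pass many clients on to HSP90. Small heat shock proteins keep unfolded proteins from aggregating, and HSP60 folds proteins inside mitochondria. Heat shock factor 1 (HSF1) switches on the inducible members by binding repeated GAA units in alternating orientation, the heat shock element. In liver these genes are known to respond to heat, oxidants and feeding, and some of them follow the daily rhythm of body temperature.

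The promoter sequences shown were picked because they hold at least a short form, of 2 alternating units, of the element HSF1 is known to bind. RefSeq promoter sequence (build GRCm38.p6) was held for 6 of the 10 genes, Hspa1a, Hspa1b, Hsph1, Dnajb1, Hspb1 and Hspd1. The 250 bases before the transcription start were searched on both strands for GAANNTTC or TTCNNGAA, which read the same on either strand and can overlap each other. Capitals mark each match, and each line runs 5′ to 3′ on the gene's strand.
Hspa1a: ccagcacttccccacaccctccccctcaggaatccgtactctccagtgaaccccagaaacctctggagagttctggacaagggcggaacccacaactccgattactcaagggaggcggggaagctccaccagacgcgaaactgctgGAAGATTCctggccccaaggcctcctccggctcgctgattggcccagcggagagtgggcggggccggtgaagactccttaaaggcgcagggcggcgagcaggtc
Hspb1: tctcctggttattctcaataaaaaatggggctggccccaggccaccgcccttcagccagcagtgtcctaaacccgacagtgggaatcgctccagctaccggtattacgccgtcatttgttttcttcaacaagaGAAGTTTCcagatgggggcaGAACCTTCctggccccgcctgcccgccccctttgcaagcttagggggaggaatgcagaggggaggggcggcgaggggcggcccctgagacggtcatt
Hsph1: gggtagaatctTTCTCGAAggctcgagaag
Hspd1: cgcgcggggccTTCCGGAAGGTTCTAGAAc
The Hspa1a sequence lies at chr17:34972157-34972406 (minus strand) and the Hspb1 sequence at chr5:135887669-135887918 (plus strand). The Hsph1 and Hspd1 lines are 30-base windows around the match, at chr5:149636351-149636380 and chr1:55088058-55088087 (both minus strand). Hspa1a held 1 match, 104 bases before the start, and Hspb1 held 2, at 117 and 97 bases. Hsph1 held 1 match, 33 and 54 bases before its 2 RefSeq starts, in windows that overlap Hsph1 itself. Hspa1b differed from Hspa1a at 3 of the 250 bases (98.8% identity) and held the same match. In Hspd1 3 matches overlapped in a run of alternating units, at 144, 139 and 134 bases before the start of the second of its 2 RefSeq starts. That window overlaps Hspd1 itself and the neighbouring gene Hspe1, and the window before the first start held no match. Neither Dnajb1 promoter held these letters in this window. Of 32851 mouse promoters of the same length, 12.8% held a match. The longer form with 3 alternating units, which of these genes only Hspd1 held, in 1 of its 2 windows, was in 0.466%.

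The members that differed over the 6 title groups were Hspa8, Hsp90aa1, Hspb1 and Hsph1. By group mean each was highest in the groups titled 42, with or without the Y, and lowest in a group titled 6 or 16. In limma's moderated F-test over the 6 groups, with Benjamini-Hochberg adjustment across the whole array and an adjusted p under 0.05 as the threshold for a call, 9 of the 13 member clusters were called, for those 4 genes, against 5.43% of all clusters. The 9 were 3 clusters of Hspa8, 3 of Hsp90aa1, 2 of Hspb1 and the 1 of Hsph1. Hspa1a (adjusted p = 0.054), Dnajb1 (0.098) and both clusters of Hspd1 (0.11 and 0.095) were not called. The plot of members by array shows the values, and nothing in bulk RNA separates fewer cells of a type from less RNA per cell.

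**Figure D1:**
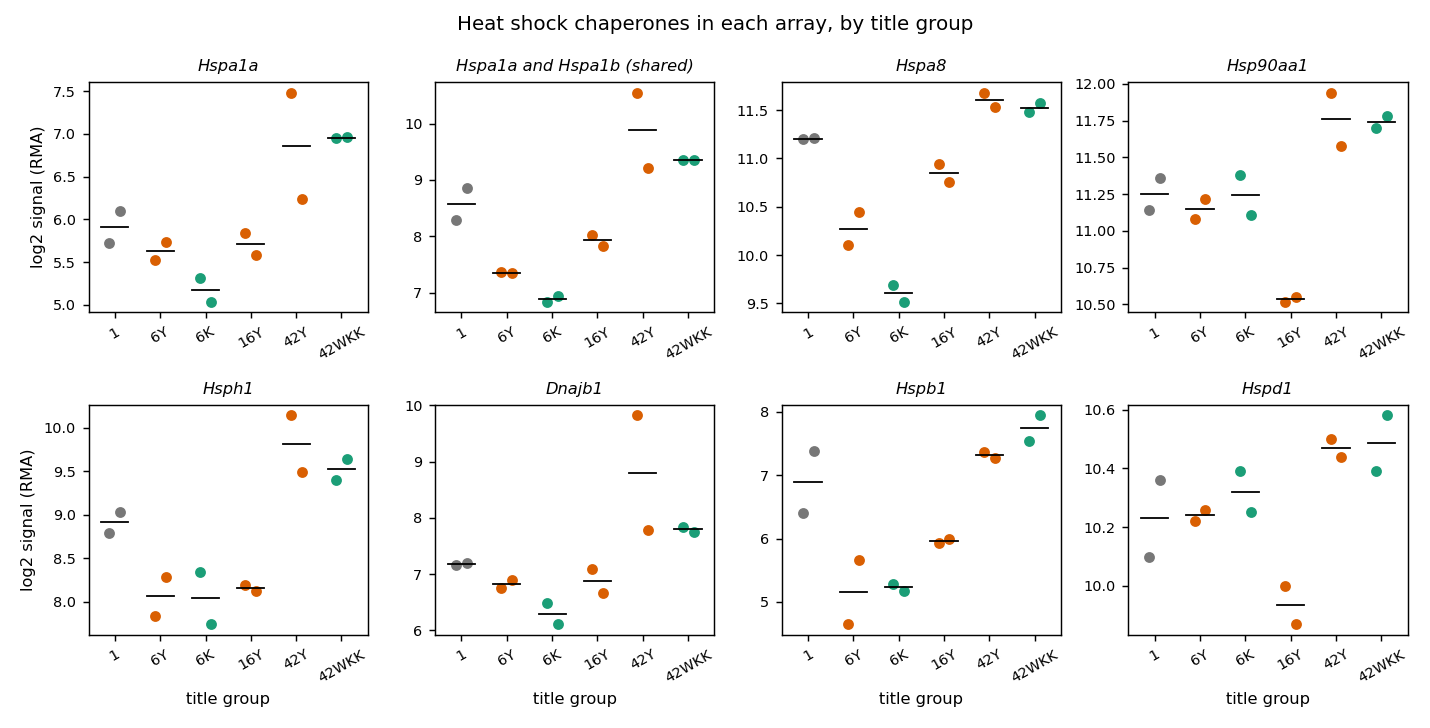
Log2 signal (RMA, y axis) of 7 members and of the cluster shared by Hspa1a and Hspa1b in each of 12 arrays, by title group (x axis). Points are arrays, lines are the means of 2 arrays, and colour separates group 1 (grey), Y-titled arrays (orange) and 6K and 42WKK (green). Hspa8 lies between 11.48 and 11.68 in the 4 arrays titled 42 and between 9.52 and 10.45 in the 4 titled 6.

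Hspa8, the constitutive HSP70 (HSC70) that also strips clathrin from vesicles, had the smallest F-test p of the members. Its cluster 10584572 read 11.20 and 11.21 in group 1, 10.10 and 10.45 in 6Y, 9.69 and 9.52 in 6K, 10.94 and 10.76 in 16Y, 11.68 and 11.53 in 42Y, and 11.48 and 11.57 in 42WKK. All 4 arrays titled 42 were above every other array, all 4 titled 6 were below every other array, and 42Y overlapped 42WKK. The range from the lowest array (6K replicate 2) to the highest (42Y replicate 1) was 4.45-fold, with a pooled SD within groups of 0.13 (F-test adjusted p = 0.0024). Group means ran 42Y, 42WKK, 1, 16Y, 6Y and 6K from high to low. No neighbours in that order were called: the differences were 0.08 for 42Y against 42WKK, 0.32 for 42WKK against 1 (adjusted p = 0.21), -0.35 for 16Y against 1 (0.34), 0.58 for 16Y against 6Y (0.077) and 0.67 for 6Y against 6K (0.68). Groups farther apart were called, for example 1 against 6K (1.60, SE 0.14, adjusted p = 0.0081) and 16Y against 6K (1.25, SE 0.14, adjusted p = 0.015). The other 2 clusters annotated to Hspa8 gave the same order, from 10.64 to 12.56 and from 10.67 to 12.59.

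Several members had more than 1 cluster, and these are not independent. Hspa8 lies on chromosome 9, but the clusters next in number to 10368025 and 10528021 lie mainly on chromosomes 10 and 5. The same held for 2 of 3 Hsp90aa1 clusters (neighbours on 11 and 3, gene on 12), 1 of 2 Hspb1 clusters (13, gene on 5) and 1 of 2 Hspd1 clusters (11, gene on 1). Such clusters may read a near-identical copy of the gene, and their values are uncertain in that respect. The member values below are from the cluster whose neighbours lie on the gene's own chromosome, a choice made after the files were read. Genes outside the members were read from their cluster of highest mean without this check. Their values and calls carry the same uncertainty.

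The inducible HSP70 genes Hspa1a and Hspa1b encode nearly the same protein and are among the genes most strongly switched on by HSF1. The Hspa1a cluster 10450369 read 5.72 and 6.10 in group 1, 5.52 and 5.73 in 6Y, 5.32 and 5.04 in 6K, 5.84 and 5.58 in 16Y, 7.48 and 6.24 in 42Y, and 6.95 and 6.96 in 42WKK. The 4 arrays titled 42 were above the other 8, but the 2 arrays of 42Y were 1.24 apart. The cluster annotated to both genes, not a member, read 8.28 and 8.85 in group 1, 7.37 and 7.34 in 6Y, 6.84 and 6.94 in 6K, 8.02 and 7.83 in 16Y, 10.55 and 9.22 in 42Y, and 9.35 and 9.35 in 42WKK. It was called in the F-test (adjusted p = 0.02), and 42Y replicate 1 was again the highest array. Which of the 2 genes gave this signal cannot be told from the cluster.

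Hsph1 encodes HSP110, an exchange factor that releases nucleotide from HSP70. It read 8.79 and 9.03 in group 1, 7.84 and 8.28 in 6Y, 8.34 and 7.74 in 6K, 8.19 and 8.12 in 16Y, 10.14 and 9.49 in 42Y, and 9.40 and 9.64 in 42WKK. The 4 arrays titled 42 were above the other 8, and 6Y, 6K and 16Y overlapped each other (F-test adjusted p = 0.023). Dnajb1 encodes HSP40, the J-domain partner that delivers clients to HSP70. It read 7.16 and 7.19 in group 1, 6.75 and 6.89 in 6Y, 6.48 and 6.11 in 6K, 7.10 and 6.66 in 16Y, 9.82 and 7.78 in 42Y, and 7.84 and 7.75 in 42WKK. One array, 42Y replicate 1, stood 2.04 above its partner, and the other 42Y array lay within the range of 42WKK.

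Hsp90aa1 encodes the inducible cytosolic HSP90, which matures kinases and steroid receptors. It read 11.14 and 11.36 in group 1, 11.08 and 11.22 in 6Y, 11.38 and 11.11 in 6K, 10.52 and 10.55 in 16Y, 11.94 and 11.58 in 42Y, and 11.70 and 11.78 in 42WKK. Its order differed from that of Hspa8: 16Y was below every other array, and 1, 6Y and 6K overlapped each other (F-test adjusted p = 0.022). All 3 clusters annotated to Hsp90aa1 had 16Y lowest. The differences of 16Y against 6Y (-0.61, SE 0.15, adjusted p = 0.081), against 6K (-0.71, 0.056) and against 1 (-0.71, 0.13) were not called. Those against 42Y and 42WKK were called and are given below.

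Hspb1 encodes the small heat shock protein HSP27 (HSP25 in mouse), which binds unfolded proteins and actin. It read 6.40 and 7.38 in group 1, 4.65 and 5.66 in 6Y, 5.29 and 5.17 in 6K, 5.93 and 6.00 in 16Y, 7.36 and 7.27 in 42Y, and 7.53 and 7.94 in 42WKK. It had the widest range among the called members, 9.78-fold from 6Y replicate 1 to 42WKK replicate B (F-test adjusted p = 0.022). The 2 arrays of group 1 lay apart, the higher just above both 42Y arrays and the lower below them. Hspd1 encodes mitochondrial HSP60. It read 10.10 and 10.36 in group 1, 10.22 and 10.26 in 6Y, 10.39 and 10.25 in 6K, 10.00 and 9.87 in 16Y, 10.50 and 10.44 in 42Y, and 10.39 and 10.58 in 42WKK. Its whole range was 1.63-fold, with 16Y lowest, and it was not called.

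The comparison of 42Y with 42WKK sets the Y-titled arrays against the others at the late title number. No member did by limma's test: 0 of 13 clusters were called at 42Y against 42WKK, where 1.85% of all clusters were, and 0 had an unadjusted p under 0.05. The difference was 0.08 for Hspa8 (95% interval -0.24 to 0.39), 0.02 for Hsp90aa1 (-0.32 to 0.36), 0.29 for Hsph1 (-0.31 to 0.90) and -0.02 for Hspd1 (-0.30 to 0.26). Both Hspb1 clusters had both 42Y arrays below both 42WKK arrays and no cluster lay higher without overlap, where 22.7% of all clusters were lower and 25.1% higher. The intervals of Hspb1 (-0.42, -1.25 to 0.41), Hspa1a (-0.09, -0.87 to 0.68) and Dnajb1 (1.00, -0.18 to 2.19) were wider. No bound for likeness was set, so none of the intervals given here shows that the groups are alike. The Dnajb1 difference came from 1 array: without 42Y replicate 2 it was 2.02 (adjusted p = 0.01) and without 42Y replicate 1 it was -0.02. At 6Y against 6K, 0 of 13 clusters were called (0.00281% of all clusters) and 3 had an unadjusted p under 0.05. These were the 3 clusters of Hspa8, at 0.67 (SE 0.14, adjusted p = 0.68) for cluster 10584572, where both 6Y arrays were above both 6K arrays. Without overlap 5 of 13 clusters were higher in 6Y (17.6% of all clusters) and 0 were lower (17.8%).

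Over all arrays, 0 of 13 clusters were called at the Y-titled against the other arrays (0.208% of all clusters, 0.129% higher and 0.0787% lower), and 3 had an unadjusted p under 0.05. These were the Hsp90aa1 clusters, where the Y-titled mean was 11.15 ± 0.56 against 11.41 ± 0.28 in the others (SD, n = 6 each), a difference of -0.26 (limma adjusted p = 0.28). The 2 sets are not balanced for title number, since 16Y is only in the first and group 1 only in the second. The Hsp90aa1 difference was 0.02 at 42Y against 42WKK and -0.09 at 6Y against 6K. Its mean was 10.54 in 16Y and 11.25 in group 1, so the -0.26 is not a difference at like title numbers. By a two-sided exact permutation test over the 12 arrays the p of single clusters ran between 0.3 and 0.92, where 0.0022 is the smallest the test allows. The difference between the Y effect at 42 and that at 6 was also called for 0 of 13 clusters (0.143% of all clusters), with 3 at an unadjusted p under 0.05. It was -0.59 for Hspa8 (SE 0.20, adjusted p = 0.26).

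**Figure D2:**
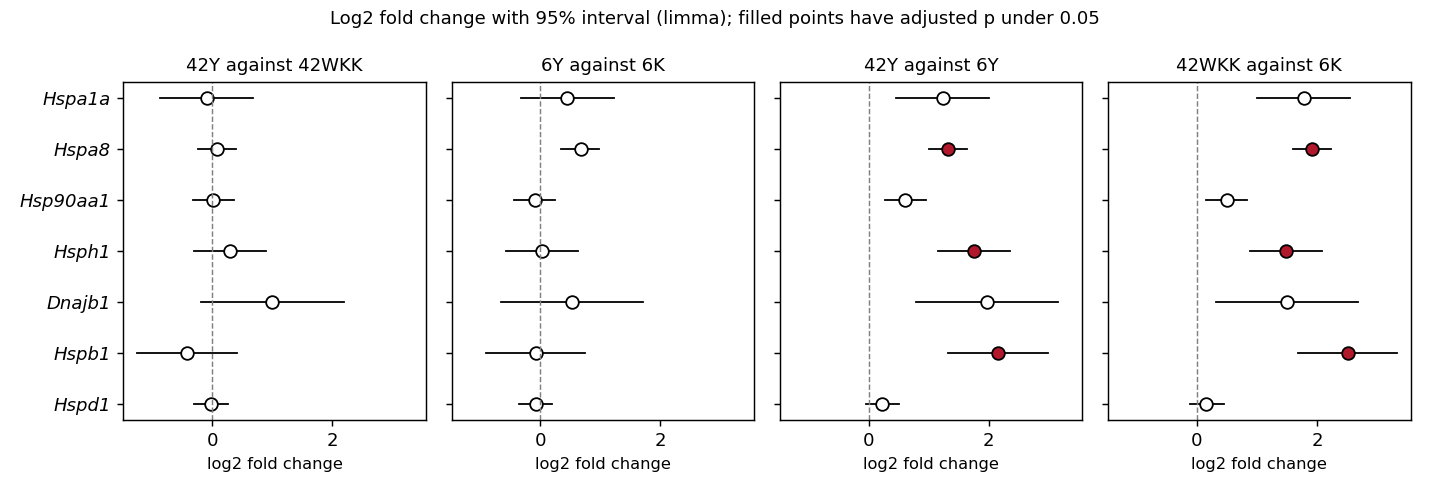
Log2 fold change (x axis) of 7 members (rows) in 4 comparisons, with 95% intervals from limma. Filled points have an adjusted p under 0.05. At 42Y against 42WKK and at 6Y against 6K no point is filled, while Hspa8, Hsph1 and Hspb1 are filled at 42Y against 6Y and at 42WKK against 6K.

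Hspa8, Hspb1 and Hsph1 differed between the title numbers 6 and 42, in the Y-titled arrays and in the others alike, while the other members were not called. At 42Y against 6Y, 6 of 13 clusters were called, all higher and for Hspa8, Hspb1 and Hsph1 (1.83% of all clusters called, 0.793% higher). Hspa8 rose by 1.33 (SE 0.14, 2.51-fold, adjusted p = 0.0053), Hspb1 by 2.16 (SE 0.36, 4.46-fold, 0.027) and Hsph1 by 1.75 (SE 0.27, 3.37-fold, 0.02). Hspa1a (1.24, adjusted p = 0.12), Dnajb1 (1.97, 0.11) and Hsp90aa1 (0.61, 0.092) were not called, nor was Hspd1 (0.23, 0.41). The shared cluster of Hspa1a and Hspa1b was 5.77-fold higher (adjusted p = 0.017). In 12 of the 13 clusters both 42Y arrays were above both 6Y arrays, where 21% of all clusters were. None was lower without overlap (21.9% of all clusters). Over the 13 clusters the median difference was 1.19, and over all clusters 0.00. The 13 clusters read 7 genes and are not independent, so such counts and medians are not over 13 separate genes. Without 6Y replicate 1, 1 cluster was called, and without 42Y replicate 1, 3 were (the count with each other array left out ran between 4 and 6). Over 19 alternatives Hspa8 lost its call in 1, Hspb1 in 8 and Hsph1 in 4.

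At 42WKK against 6K, 6 of 13 clusters were called, all higher and for the same 3 genes (1.01% of all clusters called, 0.554% higher). Hspa8 rose by 1.92 (SE 0.14, 3.78-fold, adjusted p = 0.00091), Hspb1 by 2.51 (SE 0.36, 5.68-fold, 0.024) and Hsph1 by 1.48 (SE 0.27, 2.80-fold, 0.045). Hspa1a was 1.78 higher but was not called (adjusted p = 0.053). Dnajb1 (1.50, 0.22), Hsp90aa1 (0.50, 0.17) and Hspd1 (0.16, 0.59) were not called either, while the shared cluster was 5.51-fold higher (adjusted p = 0.026). Again 12 of 13 clusters had both 42WKK arrays above both 6K arrays (23.1% of all clusters), and 0 had them below (26.9%). Over the 13 clusters the median difference was 1.50, and over all clusters -0.02. The count fell to 3 when any 1 array of 6K, 16Y or 42WKK was left out, whereas Hspa8 was called under all 17 alternatives. Hspb1 lost its call in 6 of the 17 and Hsph1 in 10. The 42Y and 6Y arrays share no sample with the 42WKK and 6K arrays, but all 4 groups share the estimate of spread.

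The intermediate title number was compared within the Y-titled arrays. At 42Y against 16Y, 4 of 13 clusters were called, all higher, for Hsp90aa1 and Hsph1 (0.399% of all clusters called, 0.205% higher and 0.194% lower). Hsp90aa1 rose by 1.22 (SE 0.15, 2.34-fold, adjusted p = 0.026) and Hsph1 by 1.66 (SE 0.27, 3.16-fold, 0.049). Hsp90aa1 lost its call in 6 of 19 alternatives and Hsph1 in 11. Hspa8 differed by 0.75 (adjusted p = 0.069), Hspa1a by 1.15 (0.18), Hspb1 by 1.35 (0.15), Dnajb1 by 1.92 (0.15) and Hspd1 by 0.53 (0.11). All 13 clusters had both 42Y arrays above both 16Y arrays, where 18.4% of all clusters did and 23.7% were lower without overlap, and all 13 had an unadjusted p under 0.05. None was called without either 16Y array, either 42WKK array or 42Y replicate 1. At 16Y against 6Y, 0 of 13 clusters were called (1.78% of all clusters, 0.582% higher and 1.2% lower) and 8 had an unadjusted p under 0.05. Hspa8 lay higher in 16Y (0.58, SE 0.14, adjusted p = 0.077), Hsp90aa1 lay lower (-0.61, SE 0.15, 0.081) and Hspd1 lay lower (-0.30, SE 0.12, 0.24). Without overlap 5 clusters were higher in 16Y (27.8% of all clusters) and 5 were lower (21.6%).

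The mean of group 1 was neither the highest nor the lowest in any of the 13 clusters. At 42Y against 1 (1.25% of all clusters called, 0.802% higher) and at 42WKK against 1 (5.71%, 3.67% higher), 0 of 13 clusters were called, with 7 and 8 at an unadjusted p under 0.05, although the 42Y and the 42WKK means were above the group 1 mean for all 13. Without overlap 11 clusters were higher and 0 lower in 42Y (20.3% and 26.6% of all clusters), and 12 were higher and 0 lower in 42WKK (22.8% and 33.9%). The median difference over the 13 clusters was 0.42 at 42Y against 1 and 0.55 at 42WKK against 1. At 16Y against 1, 0 of 13 clusters were called (0.0112% of all clusters) and 10 had an unadjusted p under 0.05, with a median difference of -0.36. Without overlap 12 of the 13 were lower in 16Y (22.4% of all clusters) and 0 were higher (21.7%). At 1 against 6Y, 5 clusters of Hspa8 and Hspb1 were called, all higher (3.42% of all clusters, 0.92% higher), with Hspa8 at 0.93 (SE 0.14, adjusted p = 0.022) and Hspb1 at 1.73 (SE 0.36, 0.044). At 42WKK against 16Y, 6 clusters of 4 genes were called, all higher (2.38%, 1.35% higher), among them Hsp90aa1 at 1.21 (adjusted p = 0.018) and Hspb1 at 1.77 (0.046).

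The 2 arrays of 42Y lay far apart for Dnajb1 and Hspa1a and close together for Hspb1 and Hspd1. All 13 member clusters were higher in 42Y replicate 1 than in replicate 2, where 50.6% of all clusters were. The gap was 2.04 for Dnajb1, 1.24 for Hspa1a, 0.65 for Hsph1, 0.35 for Hsp90aa1, 0.15 for Hspa8, 0.09 for Hspb1 and 0.06 for Hspd1. 42Y replicate 1 was the highest of the 12 arrays in 10 of the 13 clusters. All 8 immediate early genes, which respond within minutes to stress or handling, were also higher in that array, by 1.45 for the transcription factor Egr1, 1.04 for Atf3 and 0.68 for Junb. At 42Y against 42WKK Junb (1.70, SE 0.20, adjusted p = 0.0094) and Egr1 (3.16, SE 0.45, 0.018) were called higher. Their part in the chaperone values was not tested.

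Co-chaperones were examined from a list of 30 genes that help or regulate HSP70, HSP90 and HSP110, all of them measured. The neighbours in number of their clusters, that of Dnaja1 included, were not checked. In the F-test 12 of 30 were called, against 5.43% of all clusters. At 42Y against 6Y 3 were called, all higher (0.793% of all clusters were): Chordc1, an HSP90 partner (0.94, SE 0.12, adjusted p = 0.01), Dnaja1, a cytosolic J-domain protein (1.01, SE 0.16, 0.026), and Bag3, an HSP70 exchange factor that steers clients to autophagy (1.76, SE 0.29, 0.027). At 42WKK against 6K 4 were called, all higher (0.554% of all clusters), Chordc1 (1.17, adjusted p = 0.0049), Dnajb4 (1.52, 0.027), Dnaja1 (1.06, 0.03) and Bag3 (1.67, 0.044). At 42Y against 16Y 3 were called, all higher (0.205% of all clusters), Stip1, which bridges HSP70 and HSP90 (1.05, 0.033), Chordc1 (0.84, 0.033) and Hspa4l, a relative of HSP110 (0.89, 0.044). By limma's test 0 were called at 42Y against 42WKK and at 16Y against 6Y, with 6 and 12 at an unadjusted p under 0.05. The median difference of the list was 0.24 at 42Y against 6Y and 0.22 at 42WKK against 6K, against 0.00 and -0.02 over all clusters.

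Array by array, Chordc1 read 8.32 and 8.39 in group 1, 7.75 and 7.77 in 6Y, 7.78 and 7.53 in 6K, 7.80 and 7.91 in 16Y, 8.66 and 8.73 in 42Y, and 8.73 and 8.92 in 42WKK. The 4 arrays titled 42 were the highest, as for Hspa8, here with 42WKK above 42Y in the mean. Stip1 instead read 8.68 and 8.88 in group 1, 8.44 and 8.68 in 6Y, 8.66 and 8.38 in 6K, 7.94 and 8.10 in 16Y, 9.02 and 9.12 in 42Y, and 8.98 and 9.17 in 42WKK. Its lowest group was 16Y, as for Hsp90aa1. Fkbp5, an HSP90 co-chaperone induced by glucocorticoids, had another order: it read 9.37 and 9.75 in 16Y and 9.32 and 9.33 in 42Y, against 7.17 and 7.46 in 42WKK (42Y against 42WKK 2.01, SE 0.46, adjusted p = 0.075).

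**Figure D3:**
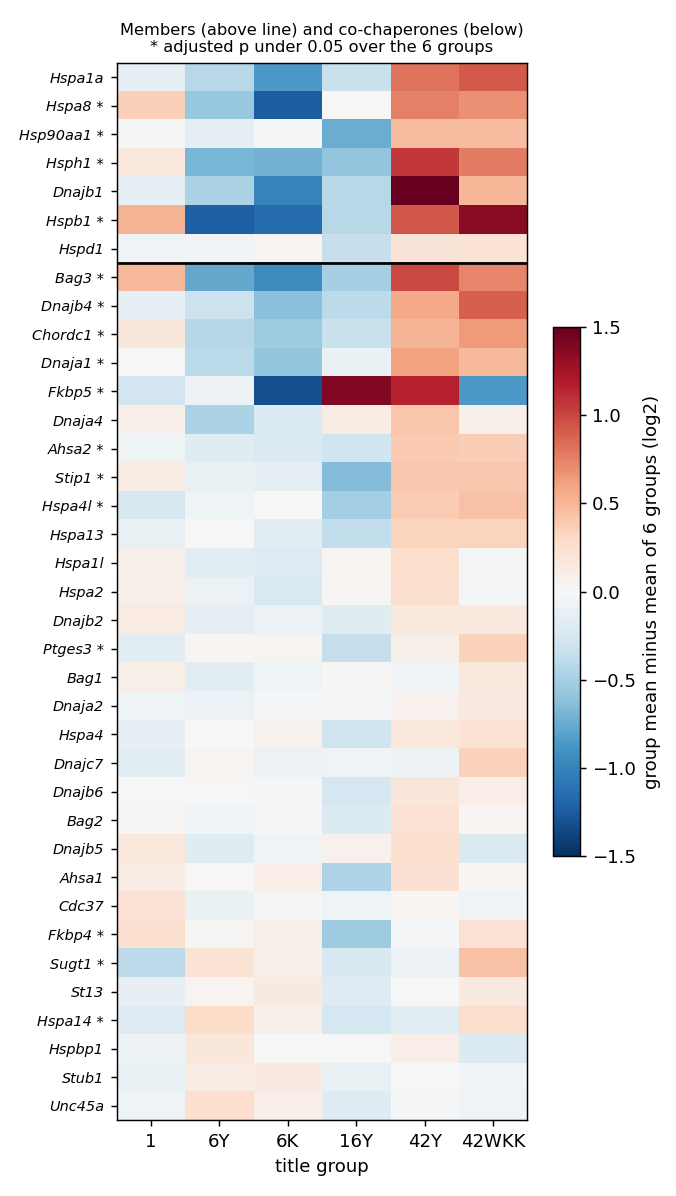
Group mean minus the mean of the 6 group means (log2, colour) for 7 members (above the line) and 30 co-chaperones and relatives (below it), by title group (columns). Asterisks mark an adjusted p under 0.05 in the F-test over the 6 groups. Hspa8, Hsph1, Hspb1, Bag3, Dnajb4, Chordc1 and Dnaja1 are red in both columns titled 42 and blue in both columns titled 6.

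Other chaperone families were counted in the same way, with the same 5.43% of all clusters called in the F-test. Of 7 small heat shock proteins beside Hspb1, 1 was called in the F-test, Hspb8, the partner of Bag3. Hspb8 was 10.98 and 10.68 in 42Y, against 9.60 and 9.65 in 42WKK (1.21, SE 0.13, adjusted p = 0.0069), a comparison in which no member was called. Of 5 measured heat shock factors and regulators 0 were called in the F-test (1 at an unadjusted p under 0.05). The heat shock factor Hsf2 was called lower at 42Y against 42WKK (-0.93, SE 0.18, adjusted p = 0.043). Of 13 mitochondrial chaperones and proteases 3 were called in the F-test, among them Clpx, the unfoldase of the ClpXP protease, which was 9.33 and 9.39 in 42Y, against 10.90 and 10.80 in 42WKK (-1.49, SE 0.12, adjusted p = 0.0019). Hspe1, the partner of Hspd1, was also called in the F-test (adjusted p = 0.038), and its 16Y value was lower than in 6K (-0.59, adjusted p = 0.044). It was read from cluster 10455588, far in number from the Hspd1 cluster 10354732 although the genes are neighbours. That cluster may therefore read a copy of Hspe1.

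The cytosolic chaperonin (the CCT ring) and prefoldin fold actin and tubulin. Of their 14 genes 4 were called in the F-test, and 2 were called lower at 16Y against 6Y (1.2% of all clusters), Cct3 (-0.82, SE 0.13, adjusted p = 0.032) and Cct7 (-0.62, SE 0.12, adjusted p = 0.045). The list median at 16Y against 6Y was -0.41, against 0.04 over all clusters. Of 14 chaperones of the endoplasmic reticulum 0 were called in the F-test, with 12 at an unadjusted p under 0.05. Creld2, a secretory pathway stress gene, was called higher at 42Y against 6Y (1.38, SE 0.27, adjusted p = 0.046), and Hspa5 (BiP) was not (0.51, SE 0.13, 0.11). Among 10 other genes linked to HSF1 or protein damage, 1 was called in the F-test, the heme oxygenase Hmox1. It rose by 1.98 at 42Y against 6Y (SE 0.20, adjusted p = 0.0051) and by 1.60 at 42WKK against 6K (SE 0.20, adjusted p = 0.017).

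Clock genes, cold-inducible genes and cell type markers were examined because chaperone levels are known to follow body temperature and time of day. Of 13 clock genes 9 were called in the F-test (5.43% of all clusters). At 42Y against 42WKK 5 were called higher and 3 lower (0.934% and 0.92% of all clusters). The activator Arntl was 5.62 and 5.67 in 42Y, against 7.74 and 7.64 in 42WKK (-2.04, SE 0.09, adjusted p = 0.00029), while Nr1d2 (1.52, adjusted p = 0.0069), Bhlhe41 (1.48, 0.0084) and Dbp (2.36, 0.019) were higher. Nr1d1, which represses Arntl, was 10.47 and 10.21 in 42Y, against 6.96 and 8.41 in 42WKK (2.65, SE 0.45, adjusted p = 0.032). The period gene Per2, a known HSF1 target, was called higher at 42WKK against 6K (0.92, SE 0.16, adjusted p = 0.041) and not at 42Y against 6Y (0.77, adjusted p = 0.054) or 42Y against 42WKK (-0.11, 0.79). Of 3 cold-inducible genes 2 were called in the F-test, Rbm3 and Srsf5, by clusters whose neighbours in number were not checked. Rbm3 was higher at 42Y against 6Y (0.89, SE 0.16, adjusted p = 0.031) and at 16Y against 6Y (0.93, SE 0.16, adjusted p = 0.033). Srsf5 was called lower at 42Y against 6K (-1.09, SE 0.20, adjusted p = 0.037) and was -0.74 at 42Y against 6Y (adjusted p = 0.11), where Cirbp was -0.45 (0.23) and the median of the 3 was -0.45. The time of day at which tissue was taken was not given, and the part of the clock in the chaperone values was not tested.

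Among the cell type markers, the F-test called 2 of 5 endothelial genes (Cdh5 and Kdr), 3 of 6 stellate cell genes (Col1a1, Col1a2 and Col3a1) and none of the 7 hepatocyte genes or of the genes of the other cell types listed. Col3a1 was 6.65 and 7.25 in 6Y and 6.71 and 6.59 in 6K, above the 5.37 to 5.88 of the other 8 arrays, so it was high where Hspa8 was low. The stellate genes Lrat, Reln and Des were not called, and not all of them had this order. Lrat was 8.11 and 7.26 in 42WKK, against 7.63 and 7.16 in 6K. Reln was 7.56 and 7.50 in 42WKK, against 7.60 and 7.52 in 6K. The array medians of the 6 stellate markers ran between 5.71 and 7.21 and those of the 5 endothelial markers between 6.76 and 8.32. Their part in the chaperone values was not tested.

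**Figure D4:**
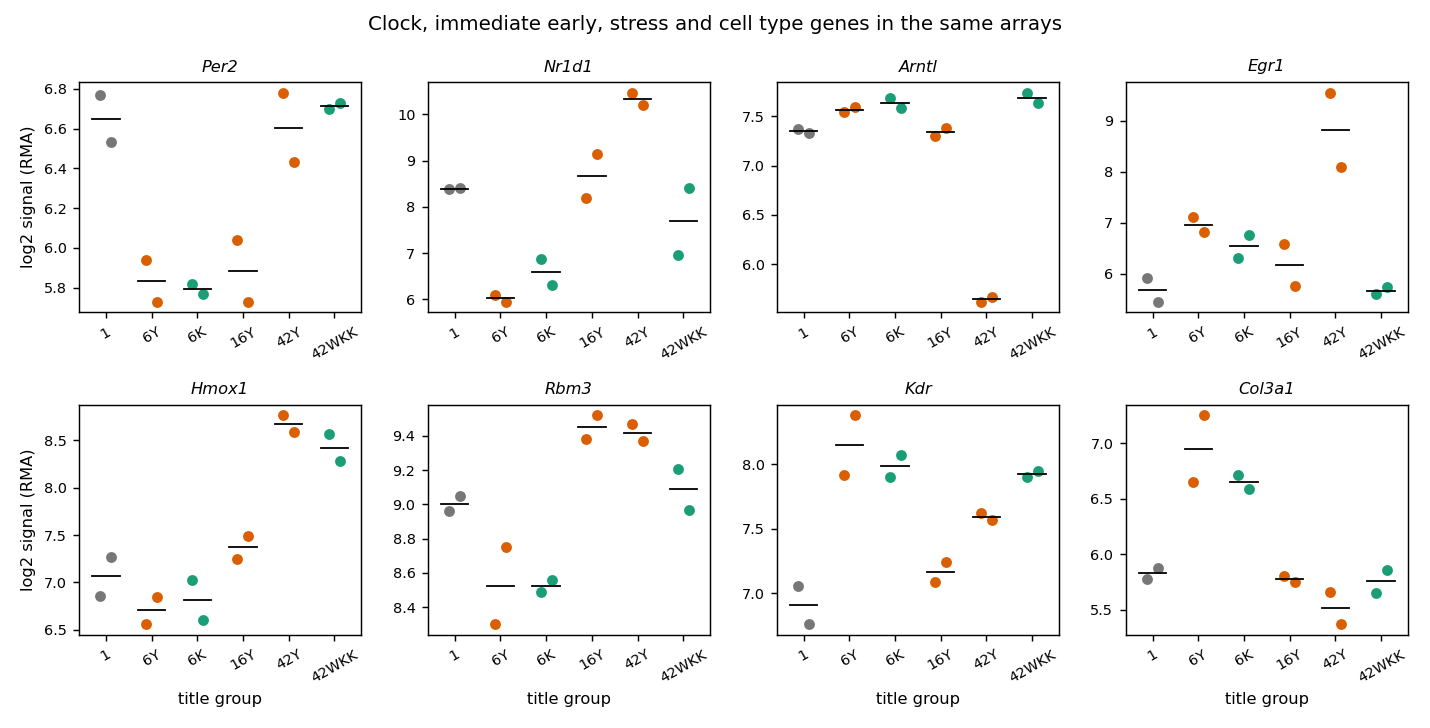
Log2 signal (RMA, y axis) of 8 clock, immediate early, stress and cell type genes in each of 12 arrays by title group (x axis), with group means as lines. Colours are grey for group 1, orange for Y-titled arrays and green for 6K and 42WKK, and the 8 genes were picked after their values were seen. Hmox1 is highest in the arrays titled 42, Arntl and Nr1d1 set 42Y apart, and Col3a1 is highest in 6Y and 6K.

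Genes whose pattern was most like that of Hspa8 were ranked by Pearson's r over the 12 arrays, among 19937 genes. The highest were Adgra3 (0.946), Dpy19l3 (0.932), Plekhb1 (0.932), Sema3e (0.926), Cacna1a (0.922), Impact (0.920), Mbnl2 (0.919), Gatad2b (0.915), Dnaja1 (0.915) and Kat7 (0.911). Dnaja1 was the 1 chaperone gene among these 10, by a cluster whose neighbours in number were not checked. The lowest were Ppcdc (-0.935), Parp10 (-0.934), Ezh2 (-0.931), Pex19 (-0.929) and Eci1 (-0.928). The arrays are shared by all of these values, and with 2 arrays a group the r mostly reflects the 6 group means.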

How the data were processed

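Total RNA of 12 mouse samples was measured on Affymetrix arrays. The deposited values are log2 signals of 35556 transcript clusters, which the authors made from probe intensities with Affymetrix Expression Console by RMA-sketch, and no counts or depths are involved, so the number of arrays limits the precision. Nothing was normalized further. Of the clusters, 21789 had 1 gene symbol, 1621 several and 12146 none in the platform annotation used, and 21698 symbols were matched through gene identifiers. A linear model with 6 group means was fitted with limma 3.58.1 in R 4.3.3 (eBayes, no trend), with Benjamini-Hochberg adjustment over all clusters and a threshold of 0.05, and was tested on simulated data. Groups were taken from the titles. A gene outside the members was measured by its 1-symbol cluster of highest mean, and genes were named from each list as up to 4 called in a comparison, by smallest p, or the 2 of smallest p where none was called. Fkbp5, Hspa5, Nr1d1, Col3a1, Atf3 and the values set out array by array for Chordc1 and Stip1 were chosen after values were seen. The members and lists were chosen with earlier results of these data known. Alternatives were quantile normalization, median centring, a mean filter, a variance trend, clusters with 1 symbol, leaving out arrays, the 42Y and 42WKK arrays alone, a one-way ANOVA, an exact permutation test and a replicate block. The 9 further pairs used for the order of levels were added after seeing the data.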

Additional observations from a re-analysis of the deposited data

Results flagged for a closer look

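Within the 6 Y-titled or the 6 other arrays, 26 groups of values were examined for an array far from the rest, by Dixon's test at the 95% level. The test would mark about 1 in 20 groups by chance if the values of a group came from 1 distribution, and it marked 2. Each group mixes title numbers, and several clusters read the same gene, so that rate is only a rough guide. The Hspa1a signal was 7.48 in 42Y replicate 1, and the Dnajb1 signal was 9.82 in the same array, each above the other 5 Y-titled arrays by a gap that was large beside the whole range. The shared cluster of Hspa1a and Hspa1b, which was not among the 26, was also highest in that array.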

How the results depend on the processing

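The number of called members depended on which clusters and arrays entered the fit. With a mean log2 of at least 6, it was 7 at 16Y against 6Y, 11 at 42Y against 16Y, 11 at 42Y against 6Y and 10 at 42WKK against 6K. With a variance trend it was 7 at 16Y against 6Y and 7 at 42Y against 16Y. With clusters of 1 gene symbol it was 6 at 16Y against 6Y, 7 at 42Y against 16Y and 11 at 42Y against 6Y. With median centring it was 1 at 16Y against 6Y. The mean filter and the 1-symbol set adjust over fewer clusters, and the cause was otherwise not tested.

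The replicate numbers do not pair the samples by the labels or by the correlation of same-numbered deviations from group means (r = -0.04 to 0.05), and with the replicate block, which has fewer arrays, 0 clusters were called at 42Y against 16Y, 42Y against 6Y, 16Y against 6Y and 6Y against 6K. Leaving out each array in turn, the count ran between 0 and 1 at 42Y against 42WKK, 0 and 6 at 42Y against 16Y, 1 and 6 at 42Y against 6Y, 3 and 8 at 42WKK against 6K, and 3 and 11 over the 6 groups (3 without a 16Y or a 42WKK array). The counts of 0 at 6Y against 6K, at the Y-titled against the other arrays and for the difference of the Y effects stayed 0 under every alternative run, and the one-way ANOVA on 4 arrays called 0 at 42Y against 42WKK.

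Of the single members, 32 values changed sign, all of them not called. With quantile normalization Hspd1 was 0.03 at 42Y against 42WKK, and with median centring Hsp90aa1 was -0.01 at 42Y against 42WKK and Dnajb1 was -0.02 at 16Y against 6Y. Without the 6K arrays the Y-titled difference was -0.37 for Hspa1a and -0.46 for Hspa8. In that fit the other arrays were only groups 1 and 42WKK, so 6Y had no group of its title number to be set against. With each array left out in turn, the difference at 42Y against 42WKK ran between -0.02 and 2.02 for Dnajb1, -0.16 and 0.20 for Hsp90aa1, -0.71 and 0.52 for Hspa1a, -0.11 and 0.08 for Hspd1, and -0.03 and 0.62 for Hsph1. At 6Y against 6K it ran between -0.23 and 0.05 for Hsp90aa1, -0.58 and 0.43 for Hspb1, and -0.28 and 0.32 for Hsph1. At 16Y against 6Y it ran between -0.16 and 0.28 for Dnajb1, -0.04 and 0.21 for Hspa1a, and -0.13 and 0.31 for Hsph1. At the Y-titled against the other arrays it ran between -0.16 and 0.26 for Hspa1a. The difference of the Y effects (42Y-42WKK minus 6Y-6K) ran between -0.55 and 1.49 for Dnajb1, -0.06 and 0.29 for Hsp90aa1, -1.16 and 0.08 for Hspa1a, -0.85 and 0.15 for Hspb1, -0.03 and 0.16 for Hspd1, and -0.05 and 0.59 for Hsph1.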
